A study of Mus musculus with 12 samples.

Results

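Cytl1, Scrg1, A2m, Capn6, Olfml3, Plac9a, Pou2af1, Wscd2 and Oxtr were the genes examined, 9 of the 55335 genes in the deposited count table. They were chosen by their log2 fold changes in these libraries, either a large fall in cells given the compound KCC-07 against control cells or a large compound-minus-knockdown difference, so their values in both of those contrasts describe the choice and were not tested. All 9 were among the 14935 genes that passed the filter on low counts. RNA sequencing was done on the mouse cell line PYMT-R221A, whose founding mammary tumour was driven by the polyoma virus middle T antigen. The 12 libraries comprised cells given 40 µM KCC-07 and their control cells, and cells transfected with an siRNA against Mbd2 (siMBD2) and their scramble siRNA cells, with 3 libraries per group. All libraries came from the same cell line, and no vehicle, treatment duration or siRNA sequence was given in the sources used here. The labels number the libraries of each group as biol rep 1, 2 and 3, while the library names call the third one 4 in the KCC-07 and control groups and 3 in the siRNA groups, so whether both arms shared batches is unclear.

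KCC-07 is a small-molecule inhibitor, placed on the MBD2 pathway by the title of the series. MBD2 is a protein that binds DNA methylated at CpG dinucleotides and recruits the NuRD repressor complex, so it is best known for keeping methylated promoters silent. Loss of such a repressor is mostly studied for the genes that rise, whereas the genes described here stood lower with the compound. Most of their products are secreted: a cartilage cytokine-like protein (Cytl1), a small cysteine-rich protein (Scrg1), a protease inhibitor (A2m), a matrix glycoprotein (Olfml3) and a small placental protein (Plac9a). Oxtr is the receptor for oxytocin, which makes mammary myoepithelium contract and eject milk, and Wscd2 is a membrane protein. Capn6 is a calpain without the catalytic cysteine of the protease family, and Pou2af1 is the B cell coactivator that joins octamer-binding transcription factors on DNA.

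Promoter sequence is shown for 5 of the genes because CpG is the dinucleotide whose methylated form MBD2 binds. RefSeq promoter windows of build GRCm38.p6, which run from 250 bases before a gene's start to 50 bases after it, were matched for 6 of the 9 genes (Cytl1, Capn6, Olfml3, Plac9a, Pou2af1 and Oxtr). The stretches below are the bases of each window that lie before both the RefSeq start and the annotated gene, written 5′ to 3′ on the gene's strand, with every CpG in capitals. They are chr5:37735269-37735518 (plus strand) for Cytl1, chrX:143827415-143827662 (minus) for Capn6, chr3:103738002-103738251 (minus) for Olfml3, chr9:51213440-51213689 (plus) for Pou2af1 and chr6:112489944-112490075 (minus) for Oxtr.
Cytl1: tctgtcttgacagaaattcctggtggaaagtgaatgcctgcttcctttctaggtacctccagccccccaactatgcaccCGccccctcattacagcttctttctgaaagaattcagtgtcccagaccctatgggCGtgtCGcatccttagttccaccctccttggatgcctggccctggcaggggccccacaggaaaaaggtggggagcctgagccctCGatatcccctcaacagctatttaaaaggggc
Capn6: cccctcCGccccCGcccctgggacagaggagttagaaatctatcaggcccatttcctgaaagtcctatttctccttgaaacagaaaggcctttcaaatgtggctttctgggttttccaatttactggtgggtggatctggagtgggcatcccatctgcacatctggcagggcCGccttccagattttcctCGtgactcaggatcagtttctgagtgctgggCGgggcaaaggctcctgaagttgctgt
Olfml3: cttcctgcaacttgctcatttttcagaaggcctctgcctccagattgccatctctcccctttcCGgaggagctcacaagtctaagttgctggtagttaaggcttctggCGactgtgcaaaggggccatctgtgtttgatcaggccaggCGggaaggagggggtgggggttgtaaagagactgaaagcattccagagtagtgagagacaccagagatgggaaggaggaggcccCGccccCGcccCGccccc
Pou2af1: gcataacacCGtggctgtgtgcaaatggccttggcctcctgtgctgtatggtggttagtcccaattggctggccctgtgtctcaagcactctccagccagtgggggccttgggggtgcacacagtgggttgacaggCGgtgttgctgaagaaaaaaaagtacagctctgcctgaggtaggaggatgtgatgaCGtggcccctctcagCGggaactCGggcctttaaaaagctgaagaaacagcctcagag
Oxtr: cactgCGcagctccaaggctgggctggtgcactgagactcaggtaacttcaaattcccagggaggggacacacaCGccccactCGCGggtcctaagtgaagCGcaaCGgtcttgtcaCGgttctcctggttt

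The Cytl1 stretch held 4 CpG in 250 bases and the Capn6 stretch 5 in 248, while the shorter Oxtr stretch held 7 in 132. Over whole windows of 300 bases the count was 4 for Cytl1, 5 for Capn6, 8 for Olfml3, 8 for Pou2af1, 20 for Oxtr and 26 for Plac9a. Across the 32851 promoter windows of 27025 genes the median was 7, with quartiles of 3 and 20. Cytl1 and Capn6 therefore lay in the CpG-poor lower part of the distribution, Olfml3 and Pou2af1 near its middle, and Oxtr and Plac9a at or above its upper quartile. The ratio of observed to expected CpG, which allows for base composition, ran from 0.183 in Cytl1 to 0.773 in Plac9a, beside a median of 0.384 over all windows. The 6 promoters thus shared no common CpG class, and methylation itself was not measured in these data.

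**Figure D1:**
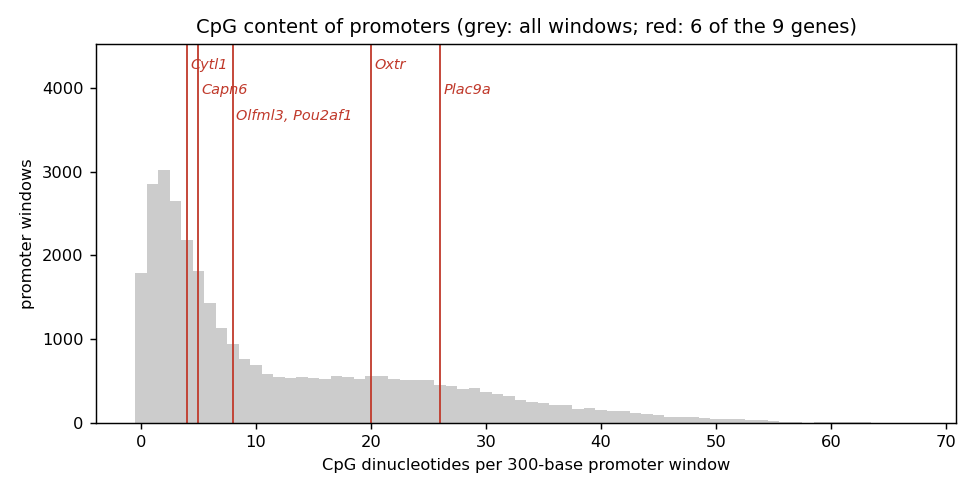
CpG dinucleotides per 300-base RefSeq promoter window (horizontal axis) against the number of windows (vertical axis), for all 32851 windows in grey, with red lines at the 6 matched genes. The lines for Cytl1 (4) and Capn6 (5) stand left of the median of 7, and those for Oxtr (20) and Plac9a (26) stand far to its right.

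Of 7 short motifs sought on both strands of these windows, the GC box GGGCGG, which itself contains a CpG, was present in 5 of the 6 windows and in 35.7% of all windows. TGACNNNGC, an antioxidant response element core, was present in 3 of 6 (Cytl1, Plac9a and Pou2af1) and in 12.4% of all windows. CCAAT was present in 2 of 6 and in 37.4% of all, and TGANTCA, an AP-1 site that can overlap TGACNNNGC in its first letters, in 1 of 6 (Capn6) and in 7.81%. TATAAA (13.6% of all windows), TTCNNNGAA (8.3%) and the octamer ATTTGCAT (1.74%) were in 0 of 6. These are matches of letters only.

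The libraries held 25.8 to 34.0 M counts each. Mbd2, the target of the siRNA, stood at 35.7, 34.7 and 30.6 CPM (read counts per M reads of the library, scaled by TMM) in siMBD2 libraries and 75.8, 83.2 and 72.5 CPM in scramble libraries, and at 75.0 ± 2.16 CPM with KCC-07 and 75.1 ± 1.94 CPM in control cells (SD, n = 3 each). The epithelial markers Krt18 (151 to 250 CPM), Krt8 (336 to 579 CPM) and Cdh1 (251 to 413 CPM) were abundant in every library, whereas Krt19 stood at 0.474 to 3.31 CPM. Their log2 fold changes of KCC-07 minus control were 0.43 for Krt18, 0.39 for Cdh1, 0.97 for Krt19 and -0.17 for Krt8. The edgeR adjusted p were 0.0479, 0.0435, 0.0498 and 0.521 in that order. The milk protein genes Csn2 and Wap had at most 2 reads and 1 read in a library. Csn3, another, stood at 1.31 to 5.83 CPM, and Ltf of the same marker list at 0.157 to 1.14 CPM. The biol rep 3 libraries stood apart: mitochondrially encoded transcripts took 3.90% of counts in KCC-07 replicate 3 and 2.81% in control replicate 3, against 1.45% to 1.82% in replicates 1 and 2 of both groups, and 2.70% in siMBD2 replicate 3 and 3.01% in scramble replicate 3, against 2.12% to 2.32%. Fold changes are therefore also given without those 4 libraries. In bulk RNA, fewer cells of a type and less RNA per cell cannot be told apart.

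Among the secreted proteins, Cytl1 (ENSMUSG00000062329, chromosome 5, 37735519 to 37739820, plus strand, GRCm38.p6 throughout), a cytokine-like protein made in cartilage, had the lowest fold. It stood at 0.887, 0.670 and 0.669 CPM with KCC-07 and at 3.72, 5.20 and 5.77 CPM in control cells, from 18 to 26 reads and from 127 to 199 reads per library. It stood at 3.79, 3.23 and 3.54 CPM in siMBD2 cells and 3.24, 4.24 and 4.04 CPM in scramble cells. The KCC-07 libraries were thus apart from all 9 others, among which the 3 groups overlapped. The log2 fold change of KCC-07 minus control was -2.71 (95% interval -3.23 to -2.19), a fold of 0.153, and -2.50 without biol rep 3.

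Scrg1 (chromosome 8, 57455923 to 57477585, plus strand) encodes a small secreted protein first found through its rise in scrapie-infected mouse brain and also made by cartilage cells. Its level was 2.08, 3.72 and 1.15 CPM with KCC-07 and 11.2, 11.4 and 14.3 CPM in control cells. In the siRNA arm it was 4.58, 3.66 and 6.72 CPM with siMBD2 and 3.55, 4.28 and 5.06 CPM with scramble. The control libraries were thus the ones that stood apart, since the second KCC-07 library reached into the range of both siRNA groups. The log2 fold change of KCC-07 minus control was -2.40 (95% interval -3.19 to -1.62), and -1.96 without biol rep 3.

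A2m (chromosome 6, 121635376 to 121679227, plus strand) encodes alpha-2-macroglobulin, which traps proteases outside the cell for clearance by the receptor LRP1. It stood at 1.81, 1.64 and 1.08 CPM with KCC-07 and 6.97, 7.39 and 7.71 CPM in control cells, a log2 fold change of -2.28 (95% interval -2.77 to -1.79), and -2.05 without biol rep 3. With siMBD2 it stood at 7.38, 5.65 and 7.43 CPM, and with scramble at 5.09, 4.36 and 6.27 CPM. Like Cytl1, it had its 3 KCC-07 libraries below all 9 others, and the siMBD2 libraries overlapped both the control and the scramble libraries.

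Olfml3 (chromosome 3, 103722222 to 103738001, minus strand), a secreted glycoprotein with an olfactomedin domain, had 3 tiers of level. It stood at 5.49, 6.50 and 2.60 CPM with KCC-07 and 18.2, 17.8 and 16.4 CPM in control cells. Both siRNA groups lay between, at 9.08, 9.34 and 8.57 CPM with siMBD2 and 9.27, 9.82 and 8.34 CPM with scramble. No siRNA library overlapped a KCC-07 or a control library. The log2 fold change of KCC-07 minus control was -1.84 (95% interval -2.39 to -1.29), and -1.58 without biol rep 3.

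Plac9a (chromosome 14, 25887506 to 25903100, minus strand) encodes a small secreted protein first described in placenta. It stood at 1.67, 0.536 and 0.743 CPM with KCC-07 and 3.51, 3.66 and 3.33 CPM in control cells, with 3.35, 2.55 and 1.75 CPM with siMBD2 and 2.76, 2.10 and 3.10 CPM with scramble. The KCC-07 libraries were the lowest of the 12, by a narrow margin over the lowest siMBD2 library. The log2 fold change of KCC-07 minus control was -1.83 (95% interval -2.66 to -0.99), and -1.70 without biol rep 3. Its 16 reads in KCC-07 replicate 2 were the fewest for any of the 9 genes, with an exact Poisson 95% interval of 9.15 to 26.0 that covers counting error only. The value is also uncertain because a copy exists: a whole Plac9a transcript of 536 bases was 100% identical to Plac9b, and 89.6% of another was identical to Gm9780. The RefSeq promoter windows of Plac9a and Plac9b shared a run of 222 bases. Plac9b (chromosome 14, 26167405 to 26182480, minus strand) stood at 7.72 ± 2.28 CPM with KCC-07 and 15.6 ± 2.93 CPM in control cells (SD, n = 3 each; log2 fold change -1.01, edgeR adjusted p = 0.0208). With the reads of both genes summed, a choice made after the data were seen, the log2 fold change of KCC-07 minus control was -1.13.

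Of the membrane proteins, Wscd2 (chromosome 5, 113490333 to 113589725, plus strand), which carries WSC domains and a sulfotransferase-like domain, was the most highly counted of the 9 genes. It stood at 15.7, 13.0 and 3.53 CPM with KCC-07 and 36.2, 36.0 and 31.1 CPM in control cells. With siMBD2 it stood at 25.8, 28.7 and 25.0 CPM, and with scramble at 26.7, 27.5 and 26.2 CPM. The siRNA groups overlapped each other and lay below the control libraries and above the KCC-07 libraries. The third KCC-07 library lay well below the other two, and the log2 fold change of KCC-07 minus control was -1.68 (95% interval -2.48 to -0.88), and -1.33 without biol rep 3.

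Oxtr (chromosome 6, 112473683 to 112489943, minus strand), the oxytocin receptor, had another pattern. It stood at 0.648, 0.704 and 1.08 CPM with KCC-07 and 3.63, 3.33 and 1.68 CPM in control cells, so the third pair of libraries lay closest together. With siMBD2 it stood at 4.47, 4.54 and 5.74 CPM and with scramble at 3.64, 3.13 and 3.57 CPM. Every siMBD2 library lay above every scramble library, and the scramble and control libraries overlapped. Oxtr had a log2 fold change of -1.83 (95% interval -2.51 to -1.15) for KCC-07 minus control and 0.51 (95% interval -0.11 to 1.13) for siMBD2 minus scramble. Without biol rep 3 those values were -2.35 and 0.41. Its mean of 1.85 CPM over the KCC-07 and control libraries lay under the 2 CPM of the rebuilt size ranking below, so it may have been chosen through the compound-minus-knockdown difference, which used the siRNA libraries too.

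The remaining genes act inside the cell. Capn6 (chromosome X, 143802231 to 143827414, minus strand), the calpain without protease activity, which binds microtubules, stood at 3.07, 2.55 and 1.52 CPM with KCC-07 and 9.69, 11.1 and 13.4 CPM in control cells. It stood at 4.13, 3.73 and 1.40 CPM with siMBD2 and 4.87, 4.71 and 3.35 CPM with scramble. Its lowest library of the 12 was thus siMBD2 replicate 3 and not a KCC-07 library. The log2 fold change of KCC-07 minus control was -2.26 (95% interval -3.07 to -1.45), and -1.88 without biol rep 3.

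Pou2af1 (chromosome 9, 51213708 to 51240080, plus strand), also called OCA-B, is known from B lymphocytes, where mice need it for germinal centres. It stood at 2.73, 1.21 and 1.08 CPM with KCC-07 and 5.42, 5.26 and 6.55 CPM in control cells. With siMBD2 it stood at 1.64, 2.59 and 1.72 CPM and with scramble at 2.23, 2.57 and 1.82 CPM. The first KCC-07 library was thus above all 6 siRNA libraries, and only the control libraries stood apart. The log2 fold change of KCC-07 minus control was -1.78 (95% interval -2.52 to -1.04), and -1.44 without biol rep 3. Capn6 and Pou2af1 each overlap a predicted gene on the same strand (Gm47298 and Gm47828), and none of the 9 genes overlaps a gene on the opposite strand.

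**Figure D2:**
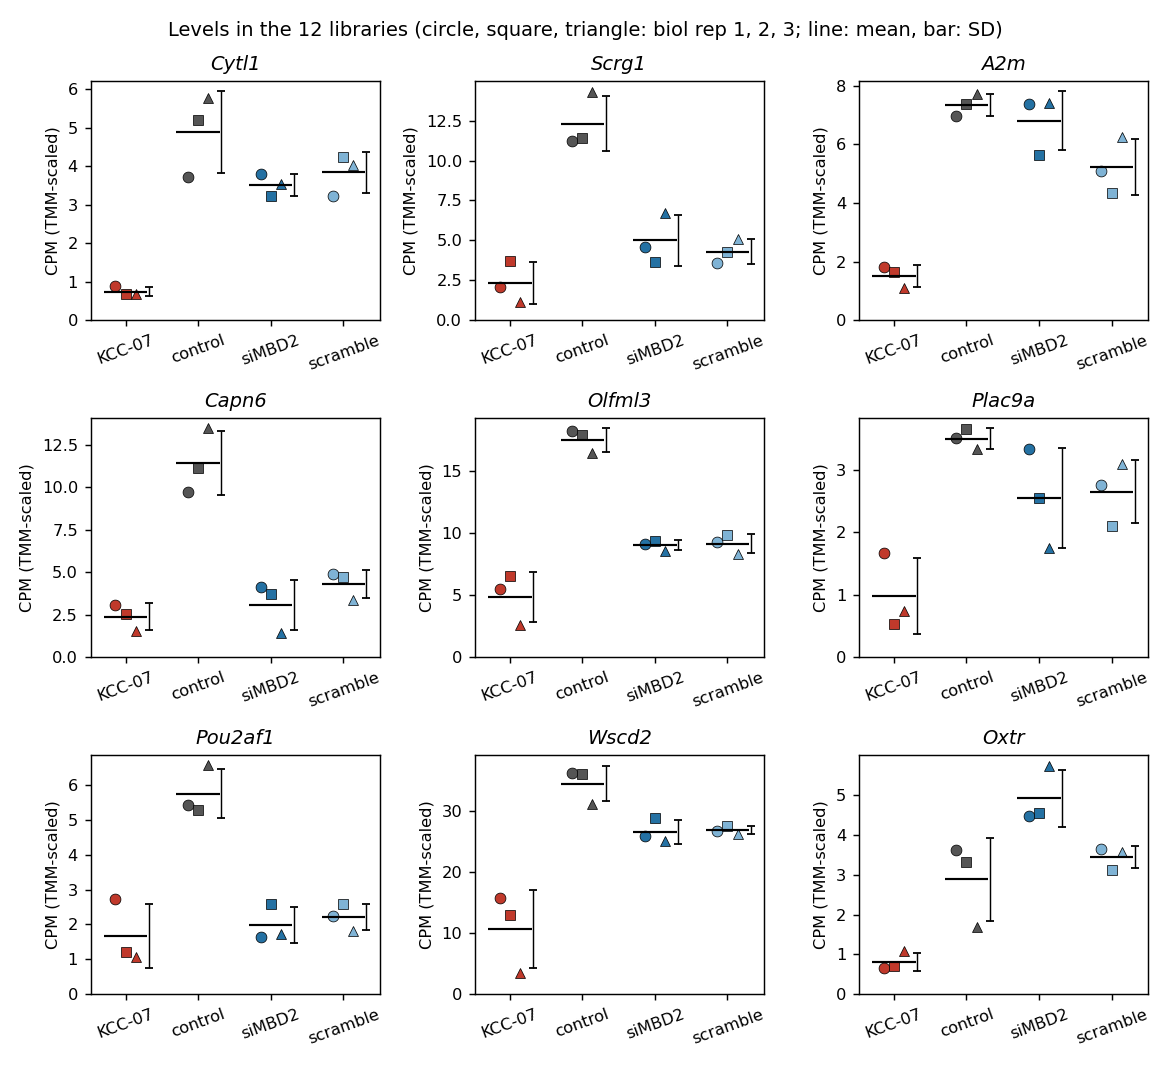
TMM-scaled CPM (vertical axes, from 0) of the 9 genes in the 12 libraries, with KCC-07, control, siMBD2 and scramble from left to right, 1 symbol per library, a line at each group mean and a bar of 1 SD. Every KCC-07 library lies below every control library for each gene, and the siRNA groups lie near the KCC-07 level for Pou2af1, in between for Olfml3 and near the control level for A2m.

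Levels can be set side by side between genes only per length, so CPM was divided by the summed exon length. On that scale Scrg1 led, with 3.31 ± 1.86 CPM per kb with KCC-07 and 17.6 ± 2.48 CPM per kb in control cells (SD, n = 3 each), the control value above those of 78.2% of tested genes with a known length. Oxtr was the lowest, with 0.169 ± 0.0488 CPM per kb with KCC-07 and 0.602 ± 0.219 CPM per kb in control cells, the control value above those of 16.7% of genes. The control values of the other genes lay between 1.05 (A2m) and 4.63 CPM per kb (Cytl1), so 8 of the 9 genes were below the middle of the measured genes.

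Over the 9 genes the median log2 fold change of KCC-07 minus control was -1.84, beside 0.015 over all 14935 genes tested, and the members ran from -2.71 to -1.68. All 9 had every KCC-07 library below every control library, as had 10.6% of all genes, and the choice of members fixes that count. Their places among the lowest fold changes ran from 19 (Cytl1) to 58 (Wscd2), so genes with larger falls existed. The rule that chose the genes states no exact threshold, and a size ranking was rebuilt from their own values, so the places in it follow from how it was built. Among genes past an edgeR adjusted p of 0.05 with a mean of at least 2 CPM over the 6 libraries, separate groups and no predicted gene model, places 3 to 10 belonged to Cytl1 through Wscd2, behind Postn (-3.06) and Cxcl12 (-2.75), which are not among the 9. The values on either side of the edge were -1.68 for Wscd2 inside it and -1.63 for Plekhb1 and -1.58 for Pi15 outside it. Without control replicate 1 or 2, Plac9a (-1.83 and -1.80) and Wscd2 (-1.65 in both) no longer met the adjusted p condition. In an edgeR fit of the 6 KCC-07 and control libraries alone, all 9 genes missed it. Their adjusted p ran from 0.0535 (Cytl1 and A2m) to 0.195 (Wscd2), and 1 gene over all was called in that fit.

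The size of the fall varied between the same-numbered pairs of libraries. The median log2 ratio of KCC-07 to control over the 9 genes was -1.73 in pair 1, -2.13 in pair 2 and -2.84 in pair 3. Pair 3 gave the most negative ratio for 7 of the 9 genes, the exceptions being Plac9a (pair 2) and Oxtr (pair 1). KCC-07 replicate 3 was the lowest of all 12 libraries for 6 of the genes. The shares of all genes with either order were not computed, so both counts describe the 9 genes only and show no trait particular to them. Oxtr ran the other way, with log2 ratios of -2.49, -2.24 and -0.64 in pairs 1, 2 and 3. Wscd2 had -1.21, -1.47 and -3.14, so that pair 3 lay far from pairs 1 and 2. KCC-07 replicate 3 was also the library with the highest mitochondrial share, 3.90%. Without the biol rep 3 libraries the 9 fold changes ran from -2.50 (Cytl1) to -1.33 (Wscd2).

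**Figure D3:**
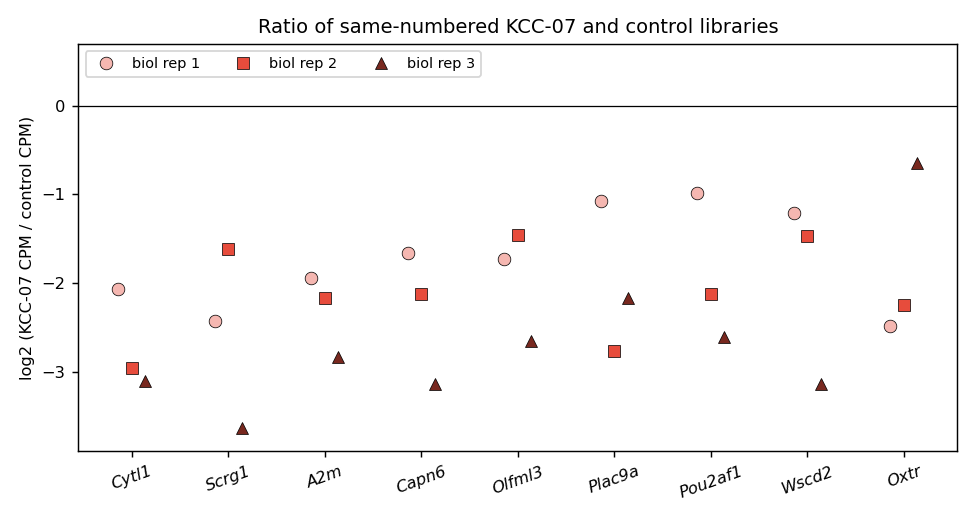
Log2 ratio of KCC-07 CPM to control CPM (vertical axis) for the same-numbered libraries of each of the 9 genes, with 1 symbol per biol rep number. Every ratio is below 0, and the biol rep 3 symbol is the lowest for 7 genes and the highest for Oxtr.

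Knockdown of Mbd2 was compared with scramble siRNA. A compound-minus-knockdown difference could also bring a gene into the choice, so these libraries may have been used in choosing the genes. The values, with the counts of calls, are therefore a description. Choice by that difference favours genes that do not fall with siMBD2, so the counts are no independent test, also with Oxtr left out. Of the 8 genes other than Oxtr, 0 passed the edgeR quasi-likelihood test, where 0.0402% of all genes (6 of 14935) did; the count over all genes was 2 to 3 with any 1 of the 6 siRNA libraries left out and 112 with the replicate block. At an unadjusted p under 0.05 there were 0 of 8 as well, beside 5.26% of all genes, and DESeq2 called 0 of 8. Capn6 had the most negative log2 fold change, -0.48 (95% interval -1.27 to 0.31), and A2m the most positive, 0.38 (95% interval -0.08 to 0.83). Cytl1 had -0.12 (95% interval -0.59 to 0.34), Scrg1 0.22 (-0.54 to 0.97), Olfml3 -0.02 (-0.56 to 0.51), Plac9a -0.06 (-0.85 to 0.73), Pou2af1 -0.15 (-0.89 to 0.58) and Wscd2 -0.02 (-0.79 to 0.75). The siMBD2 and scramble libraries overlapped for each of the 8. The intervals do not show equality, since those of Capn6, Plac9a, Pou2af1 and Wscd2 reach to -0.79 or lower. Their width comes from 1 spread per gene shared by all 12 libraries, so it also carries the scatter of the KCC-07 and control libraries. For Wscd2 the SD was 1.97 CPM with siMBD2 and 0.655 CPM with scramble, but 6.37 CPM with KCC-07. Its interval is thus no measure of the spread in the siRNA arm alone.

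In the difference of the effects, KCC-07 minus control less siMBD2 minus scramble, the 9 genes ran from -2.66 (A2m) to -1.62 (Pou2af1), with a median of -1.82 beside 0.00214 over all genes. Oxtr had -2.34 (95% interval -3.26 to -1.42), of which -1.83 came from the compound arm and the remainder from its higher level with siMBD2. Oxtr was the only one of the 9 with siMBD2 and scramble libraries fully apart, which 22% of all genes showed in one direction or the other.

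Scramble siRNA cells were also set beside the control cells. The comparison shares the control libraries with the one that chose the genes, so its values are given as a description. Scramble minus control was below 0 for 8 of the 9 genes, as for 53.1% of all genes, with a median of -0.49 beside -0.029 over all. Scrg1 had -1.52 (95% interval -2.28 to -0.76), Capn6 -1.40 (-2.18 to -0.63), Pou2af1 -1.38 (-2.11 to -0.65) and Olfml3 -0.94 (-1.47 to -0.40). A2m (-0.49), Plac9a (-0.40), Wscd2 (-0.36) and Cytl1 (-0.35) had smaller values, and Oxtr had 0.26. For 7 of the 9 genes every scramble library was below every control library, beside 16.8% of all genes, and Cytl1 and Oxtr were the genes with overlap. Scrg1, Capn6, Olfml3, Pou2af1 and Wscd2 had every library of the 3 other groups below every control library, whereas Cytl1 was apart from the control libraries with KCC-07 alone. The share of all genes with either order was not computed, so these orders describe the named genes only.

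**Figure D4:**
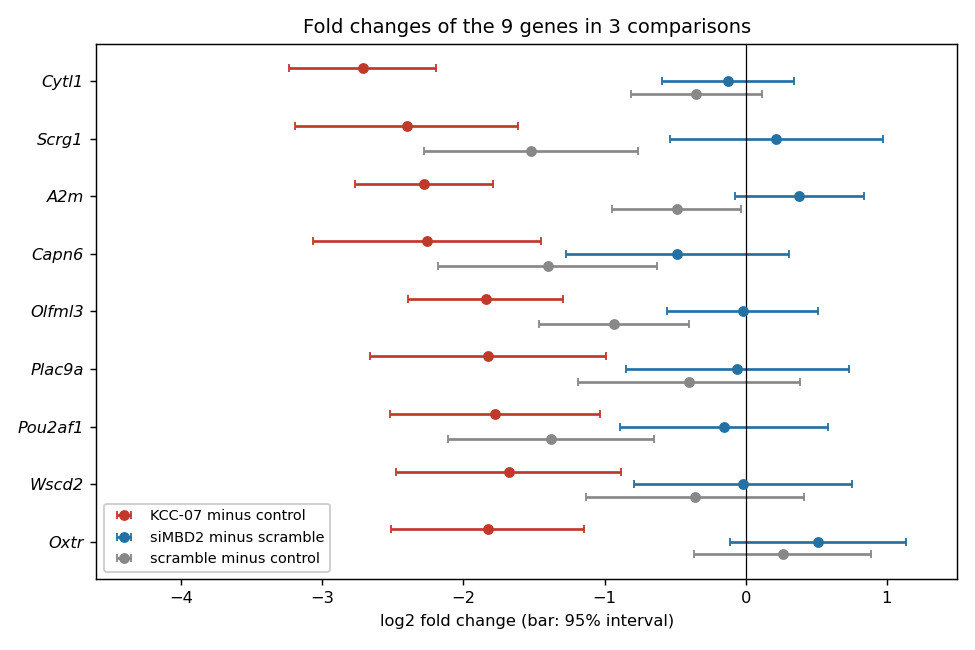
Log2 fold change (horizontal axis) with its 95% interval for KCC-07 minus control, siMBD2 minus scramble and scramble minus control, 1 row per gene. The compound values lie between -2.71 and -1.68, the knockdown values between -0.48 and 0.51, and the scramble values between -1.52 and 0.26.

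The 9 genes varied together over the 12 libraries to different degrees. Pearson's r of log2 CPM ran from 0.56 (A2m with Capn6) to 0.958 (Cytl1 with A2m) over the 28 pairs that leave out Oxtr, with a median of 0.81. The 8 pairs with Oxtr ran from 0.172 (with Capn6) to 0.836, with a median of 0.579. These values describe points that share libraries and treatment groups, and the common KCC-07 fall is part of each of them. Among 11063 genes with a mean of at least 2 CPM, the chemokine gene Cxcl12 was the most alike to both A2m (r = 0.984) and Cytl1 (0.952) over the 12 libraries. For Pou2af1 it was the collagen gene Col6a2 (0.963), for Capn6 Impdh2 (0.933) and then the matrix proteoglycan gene Bgn (0.924), and for Oxtr Wfdc18 (0.965). For Olfml3 it was Dcakd (0.975), for Wscd2 the splicing factor gene Srsf3 (0.978), for Scrg1 Cdk2ap1 (0.952), and for Plac9a the ribosomal protein gene Rpl29 (0.915). Second in r were Pcif1 for Cytl1 (0.949), Hhat for A2m (0.972), Acadm for Scrg1 (0.941) and H2afx for Olfml3 (0.966). They were Elp2 for Plac9a (0.911), Drp2 for Pou2af1 (0.951), Lancl2 for Wscd2 (0.971) and Gnb1 for Oxtr (0.956).

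Genes of the same families and pathways were read beside the shares over all genes. In KCC-07 against control, 3.58% of all genes rose and 2.08% fell (534 and 310 genes, edgeR adjusted p under 0.05). Their sum of 844 became 400, 384 and 2112 without control replicates 1, 2 and 3, 3832 without biol rep 3 and 1 in a fit of the 6 libraries alone. The lists below leave out the 9 genes themselves. Of 20 tested cartilage and chondrocyte genes, set beside Cytl1 and Scrg1, 0 rose and 1 fell, with a median of -0.17. The one that fell was Ucma, a mineralisation inhibitor of cartilage, at 2.98 ± 1.36 CPM with KCC-07 and 8.62 ± 0.908 CPM in control cells (SD, n = 3 each). Its log2 fold change was -1.53 (edgeR adjusted p = 0.0200). Ucma also stood low in the siRNA arm, at 2.39 ± 0.610 CPM with siMBD2 and 2.12 ± 0.264 CPM with scramble. Its scramble minus control value was -2.025, so the control cells had the highest mean and the low level was not particular to KCC-07. Cnmd, the chondromodulin gene, had -1.07 (adjusted p = 0.110, and 0.00410 with the replicate block) and Matn4, a matrilin gene, 0.41 (adjusted p = 0.130). The Ucma call ended without control replicate 1 (adjusted p = 0.0647), without control replicate 2 (0.0509) and in a fit of the 6 KCC-07 and control libraries alone (0.158).

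Of 5 tested relatives of A2m and its receptor, 0 rose and 0 fell, with a median of 0.13. The complement gene C3, a member of the same protein family, stood at 44.0 ± 17.8 CPM with KCC-07 and 16.5 ± 4.13 CPM in control cells (log2 fold change 1.42, adjusted p = 0.0512), on the other side of 0 from A2m. With the replicate block C3 passed the threshold (log2 fold change 1.37, adjusted p = 0.0143). The receptor chaperone gene Lrpap1 had 0.12 (adjusted p = 0.397) and Cd109 had 0.16 (adjusted p = 0.582). Of 8 tested calpain genes other than Capn6, 0 rose and 0 fell, with a median of 0.05. Capns1, the small regulatory subunit, had -0.29 (adjusted p = 0.120), Capn5 0.71 (0.165) and Capn15 0.19 (0.451). With the block, Capns1 (log2 fold change -0.29, adjusted p = 0.0151) and Capn5 (0.62, 0.0231) passed. Without KCC-07 replicate 3 and with no block, those values were -0.18 (0.249) for Capns1 and 0.20 (0.611) for Capn5.

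Of 6 tested genes with an olfactomedin domain other than Olfml3, 1 rose and 0 fell, with a median of 0.20. Adgrl3, an adhesion receptor of synapses, rose to 30.3 ± 6.98 CPM with KCC-07, against 19.5 ± 2.71 CPM in control cells (log2 fold change 0.64, adjusted p = 0.0339). Myoc, the myocilin gene, had -1.72 (adjusted p = 0.0979, and 0.0288 with the block) at 0.465 ± 0.350 CPM with KCC-07 and 1.55 ± 0.492 CPM in control cells, and Olfml2b had 0.32 (0.320). In the siRNA arm Myoc stood at 0.605 ± 0.149 CPM with siMBD2 and 0.234 ± 0.109 CPM with scramble. Its scramble minus control value was -2.70, so the control cells again had the highest mean. The Adgrl3 call ended in the fit of the 6 libraries alone (0.239), without KCC-07 replicate 1 or 3 (0.0534 and 0.0642) and without control replicate 1 or 2 (0.115 and 0.111).

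Of the 3 tested octamer factors and relatives of Pou2af1, 0 rose and 0 fell, with a median of -0.10. Pou2f1, which encodes the octamer factor OCT1 that Pou2af1 binds, had -0.10 (adjusted p = 0.803), Pou2f3 had -0.10 (0.934) and the ETS factor gene Spib had 1.18 (0.505, and 0.0143 with the block). The Spib value was 0.50 without KCC-07 replicate 1, 0.61 without control replicate 3 and 2.27 without control replicate 1. Pou2f2, the B cell octamer factor, did not pass the filter on low counts. Of 12 tested genes of oxytocin and vasopressin signalling, 1 rose and 0 fell, with a median of 0.18. Plcb4, a phospholipase C that acts below such receptors, rose to 11.1 ± 3.04 CPM with KCC-07, against 5.08 ± 0.762 CPM in control cells (log2 fold change 1.13, adjusted p = 0.0130), whereas Oxtr stood lower. Cd38 had 0.56 (adjusted p = 0.0634, and 0.0397 with the block), and Itpr3, an inositol trisphosphate receptor gene, had 0.55 (0.145, and 0.00662 with the block). Itpr3 had 0.34 without KCC-07 replicate 3, 0.33 without control replicate 1 and 0.86 without control replicate 3 (adjusted p = 0.0136). The Plcb4 call ended without control replicate 1 (0.0509) and in the fit of the 6 libraries alone (0.139). The genes for oxytocin and vasopressin themselves, Oxt and Avp, did not pass the filter. Beside Plac9a and Wscd2, 2 genes were tested: Plac9b fell, and Plac1, another placental gene, had -0.45 (adjusted p = 0.573). The Plac9b call ended without KCC-07 replicate 1 (0.0538), without control replicate 1 or 2 (0.0691 and 0.0664) and in the fit of the 6 libraries alone (0.173).

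**Figure D5:**
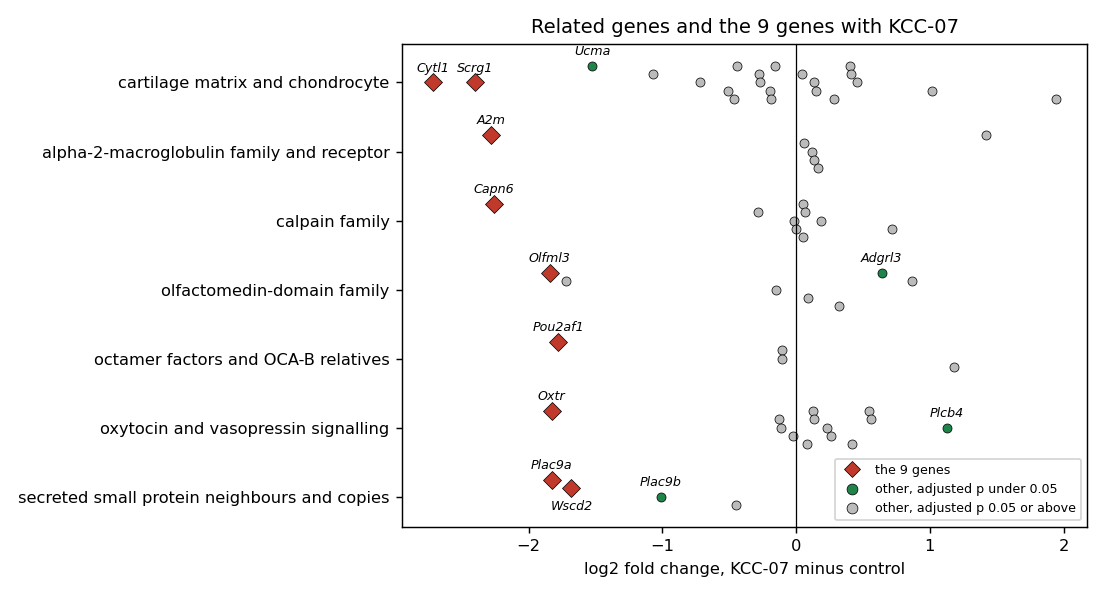
Log2 fold change of KCC-07 minus control (horizontal axis) for the tested genes of the 7 family and pathway lists, 1 row per list, with the 9 genes as red diamonds, other genes past an adjusted p of 0.05 in green and the rest in grey. The 9 genes lie at -1.68 or lower, and the named green points are Ucma (-1.53) and Plac9b (-1.01) below 0 and Adgrl3 (0.64) and Plcb4 (1.13) above it.

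The nearest tested gene on each side of the 9 genes was also read. Of these 18 neighbours 1 was called and 11 were below 0, beside 5.65% called and 48.2% below 0 over all genes, and the median log2 fold change of KCC-07 minus control was -0.07, beside 0.015 over all genes. The called one was Stk32b, a kinase gene 18348 bases before Cytl1, named, like the neighbours below, after its values were seen, with -2.81 (edgeR adjusted p = 0.04) at a mean of 0.289 CPM over the 6 libraries. On the other side of Cytl1, Msx1 had 0.08 (adjusted p = 0.856). Pak3, 4435 bases from Capn6, had 0.49 (0.0854), and Hipk1, 1814 bases from Olfml3, had 0.12 (0.707).

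Markers of other cell types were summed in CPM beside these genes. The chondrocyte list, set beside Cytl1 and Scrg1, came to 216 to 288 with KCC-07 and 195 to 332 in control cells, with 7 of 11 markers tested, Matn1 at 0 and Acan at 1 read in all 12 libraries together. Col9a1 alone had means of 188 with KCC-07 and 214 in control cells, so this sum shows little of the lower markers. Of the 7 tested, 1 fell (Ucma) and 5 were below 0, with a median log2 fold change of -0.467, while Matn3 and Col9a2 had 0.15 and 0.46. The B lymphocyte list, beside Pou2af1, came to 17.0 to 21.7 with KCC-07 and 13.7 to 20.4 in control cells, with 1 of 12 markers (Pax5) tested and Ms4a1, Ighm, Igkc, Vpreb3 and Fcrla at 0. The myoepithelial list, beside Oxtr and including it, came to 358 to 708 with KCC-07 and 569 to 688 in control cells, with 10 of 12 tested. Krt14 alone had means of 366 with KCC-07 and 442 in control cells. Of the 9 tested genes other than Oxtr, 0 were called and 6 were below 0, with a median of -0.272. Trp63 had -0.82 (edgeR adjusted p = 0.0626) and Krt17 0.45 (0.115). The fibroblast list, beside Olfml3 and A2m, came to 110 to 165 with KCC-07 and 216 to 299 in control cells, with 6 of 12 tested and Thy1 at 0. The sum of that list was thus lower with KCC-07, as the 9 genes were. It came to 195.5 to 210.5 with siMBD2 and 180 to 220.9 with scramble. Of its 6 tested genes 1 was called, Postn (log2 fold change -3.06, edgeR adjusted p = 0.00665), and 5 were below 0, while Col1a2 had 0.59. Dcn, Lum, Dpt and Pi16 had at most 5, 2, 1 and 3 reads in a library. The part of this list in the values of the 9 genes was not tested. The luminal list came to 1672 to 1700 with KCC-07 and 1414 to 1612 in control cells (13 of 15 tested). Of those 13 genes, 5 rose and 0 fell, beside 3.58% and 2.08% of all genes, and 7 were below 0. The 5 were Foxa1 (log2 fold change 1.43, edgeR adjusted p = 0.000572), Epcam (0.45, 0.0338), Krt18, Cdh1 and Krt19. These calls were not repeated under the alternative settings. The macrophage list came to 9.95 to 11.2 with KCC-07 and 3.83 to 6.16 in control cells (3 of 10 tested, Adgre1, C1qa and C1qb at 0). The endothelial list came to 3.49 to 7.61 with KCC-07 and 3.83 to 5.53 in control cells (2 of 8 tested, Cdh5, Tie1 and Cldn5 at 0).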

How the data were processed

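Per the labels' protocols, column-purified RNA was sequenced on a NovaSeq X instrument. The deposited table holds whole-number read counts per gene, not normalized by the authors as far as the values show. DRAGEN, DESeq2 1.44.0 and the builds mm10 and GRCm38.p6 appear, without a role, per the submitters' processing notes. Annotation, strand setting and handling of multi-mapped reads are not given in the sources used here. Counts were filtered with filterByExpr (minimum count 10, minimum total 15), scaled by TMM and fitted with edgeR 4.0.16 under R 4.3.3 (glmQLFit and glmQLFTest, 1 mean per group over 12 libraries, 8 residual degrees of freedom), with Benjamini-Hochberg adjustment over 14935 genes and a threshold of 0.05. Every adjusted p for KCC-07 against control or siMBD2 against scramble is from that fit unless a setting is named, and p-values measure the spread between libraries that the labels call biological replicates. Correlations used log2 CPM with a prior count of 2.

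The genes, lists, markers and tests were chosen with earlier results of these data known. Named besides the 9 genes and Mbd2 are up to 3 genes per list with the smallest p, up to 2 most alike genes per gene, and the genes at the edge of the size ranking. Others are markers picked from a cell type list, copies or overlapping genes, or family genes at or near 0. The rest are said to be named after their values were seen. The labels' batch tag carries the biol rep number, so equal numbers pair the libraries. Deviations of same-numbered libraries from the group means correlated across genes with r = 0.268, 0.284 and 0.484 between KCC-07 and control, and with 0.0925, 0.153 and 0.421 between siMBD2 and scramble. Replicate 1 set against replicate 2 of the other group gave 0.295 and 0.173 in the compound arm and 0.214 and 0.18 in the siRNA arm, so the values set apart only number 3, and numbers 1 and 2 are paired by the labels alone. Gene positions are those of GENCODE for GRCm38.p6 (54587 of 55335 identifiers matched with their version), copies from blastn 2.17.0 and promoters from RefSeq. Every pair of replicates differed by more than sampling noise (chi-square per degree of freedom at least 3.43). Replicates 1 and 2 gave 9.83 in KCC-07, 29.5 in control, 3.43 in siMBD2 and 3.56 in scramble. Pairs with replicate 3 gave 119 and 120 in KCC-07, 89.7 and 135 in control, 31.7 and 35 in siMBD2, and 22.6 and 24.0 in scramble. The main fit shares 1 spread per gene between the arms, so its intervals and adjusted p do not allow for this difference. Alternatives were other size factors, other filters, the replicate block (4 residual degrees of freedom), the 6 libraries of a comparison alone, DESeq2 1.42.0, and fits without biol rep 3 or each library.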

Additional observations from a re-analysis of the deposited data

How the results depend on the processing

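The 9 genes kept a log2 fold change below 0 in KCC-07 against control in all 118 alternative values, with medians between -2.33 and -1.83. The genes were chosen for falls in these same libraries, so those signs follow from the choice. Of the 8 genes other than Oxtr, 0 passed with siMBD2 under each of 13 alternatives, which the choice may also have favoured. Counts over all genes depended on the setting. In KCC-07 against control 844 genes became 3251 with the replicate block, 1 with 6 libraries alone, 1874 with DESeq2, 3832 without biol rep 3 and 384 to 2112 with 1 KCC-07 or control library left out (384 without control replicate 2, 400 without control replicate 1, 2112 without control replicate 3). With siMBD2, 6 genes became 112, 177, 85 and 162 under the first 4 of these settings and 2 to 3 with 1 siRNA library left out. The cause was not tested. The replicate block left the siMBD2 count of the 8 genes at 0. It brought Cnmd, C3, Capns1, Capn5, Myoc, Spib, Cd38 and Itpr3 past the threshold with KCC-07. It changed no other call among the named genes of the family and pathway lists.

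Values near 0 changed sign. Without biol rep 3 Pou2f1 and Pou2f3 had 0.17 and 0.10 with KCC-07, and Plac9a and Wscd2 had 0.27 and 0.0118 with siMBD2. Plac9a summed with Plac9b had 0.0235 with siMBD2. With 1 library left out, KCC-07 values ran from -0.30 to 0.22 (Pou2f1), -0.46 to 0.22 (Pou2f3) and -0.0153 to 0.325 (Cd109), and siMBD2 values from -0.0596 to 0.399 (Scrg1), -0.0836 to 0.0327 (Olfml3), -0.30 to 0.15 (Plac9a) and -0.0770 to 0.0237 (Wscd2). Pou2f3 had no value under the filter of 1 CPM in 3 libraries. Depth limits Plac9a, Cytl1 and Oxtr most, with at most 29 reads in at least 2 of 3 KCC-07 libraries.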
